A study of Mus musculus with 4 samples.

Results

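The 9 genes described here encode the erythropoietin receptor and its immediate signalling chain, namely Epor, Jak2, Stat5a, Stat5b, Cish, Socs2, Socs3, Pim1 and Foxo3. They were chosen by name, and all 9 were among the 10716 genes of the deposited table. RNA came from mouse fetal liver (strain C57BL/6) at embryonic day 14.5, from cells sorted as positive for a YFP reporter at the Rosa26 locus and described as erythroid. There were 2 knockout-labelled libraries (replicates 1 and 2), in which a Cre recombinase expressed from the Epor gene acts on Adar, and 2 wild-type controls (replicates 3 and 8). The genotype of the knockout-labelled libraries is given as Epor-Adar / +, so the number of deleted Adar alleles is unstated. The labels describe the same YFP sort for the controls and do not say whether these carried Cre. They also do not say whether the Cre allele still makes Epor transcript, or whether each library came from a separate embryo, so the spread behind each p-value is that of these 4 libraries and may be technical.

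Erythropoietin binds EPOR on committed erythroid progenitors and early erythroblasts, and keeps them alive while they divide and begin to make haemoglobin. The receptor has no kinase domain of its own and relies on the bound tyrosine kinase JAK2, which phosphorylates the receptor tail and the STAT5 proteins recruited to it. STAT5 dimers then enter the nucleus and bind palindromic elements in genes that include the feedback inhibitors Cish, Socs2 and Socs3 and the survival kinase gene Pim1. A separate branch through PI3K and AKT phosphorylates FOXO3 and keeps it out of the nucleus. FOXO3 becomes active as erythropoietin signalling declines during maturation, and drives genes for oxidant defence, cell cycle exit and autophagy.

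Promoters of 8 of the 9 genes, 11 in all, were present in the RefSeq promoter table (build GRCm38.p6, 250 bases before to 50 after the start), and Socs2 had no entry. The palindrome TTCNNNGAA bound by STAT proteins, which reads the same on both strands, occurred in the promoters of 2 of the genes, Cish and Socs3, and in 8.3% of 32851 promoters of that length. Cish held it 2 times, as 0.457% of all promoters did at least. The forkhead motif GTAAACA, searched on both strands, occurred in 1 of the 11 promoters, at the downstream of 2 Pim1 starts, and in 3.65% of all promoters. The GATA motif AGATAA, added to the search after the sequences were seen, occurred in the Epor promoter and in 11.2% of all promoters. No match overlapped another. The windows below run from 170 bases before to 30 after the start, 5′ to 3′ on the gene's strand, and are shown because they hold matches to motifs of factors in or near the receptor's pathway. Capitals mark the STAT motif in Cish (chr9:107296489-107296688, plus strand) and Socs3 (chr11:117969337-117969536, minus strand), the forkhead motif in Pim1 (chr17:29492915-29493114, plus strand) and the GATA motif in Epor (chr9:21963547-21963746, minus strand, where it reads as its reverse complement).
Cish: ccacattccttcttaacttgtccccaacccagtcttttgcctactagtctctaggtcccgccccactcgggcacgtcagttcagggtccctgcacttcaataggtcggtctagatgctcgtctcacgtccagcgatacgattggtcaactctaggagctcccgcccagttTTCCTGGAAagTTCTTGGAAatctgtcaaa
Socs3: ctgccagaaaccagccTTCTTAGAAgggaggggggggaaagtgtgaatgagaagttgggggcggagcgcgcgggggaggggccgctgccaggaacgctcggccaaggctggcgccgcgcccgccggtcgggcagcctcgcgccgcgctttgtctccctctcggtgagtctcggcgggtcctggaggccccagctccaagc
Pim1: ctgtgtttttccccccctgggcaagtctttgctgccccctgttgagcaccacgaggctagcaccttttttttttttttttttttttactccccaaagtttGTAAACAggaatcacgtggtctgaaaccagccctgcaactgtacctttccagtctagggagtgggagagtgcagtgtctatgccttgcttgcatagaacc
Epor: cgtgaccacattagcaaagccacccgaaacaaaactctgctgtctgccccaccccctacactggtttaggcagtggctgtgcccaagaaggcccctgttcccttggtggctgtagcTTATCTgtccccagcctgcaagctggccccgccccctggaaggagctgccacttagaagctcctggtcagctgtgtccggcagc
The matches describe letters in these windows and not binding, which was not measured.

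None of the 9 genes passed the test between knockout-labelled and control libraries, and neither the receptor, its kinase nor the STAT5 genes had groups that separated. The largest differences were those of Pim1 and Foxo3, above both controls in both knockout-labelled libraries, and of Socs3, below them. Cish, the most direct STAT5 readout of the set, differed more between libraries of 1 group than between the groups. The edgeR quasi-likelihood test (Benjamini-Hochberg adjusted p below 0.05, over all genes) called 0 of the 9, where 0.103% of all genes were called. At an unadjusted p below 0.05 there were 1 higher (Pim1) and 1 lower (Socs3), where 9.82% and 2.08% of all genes were. The 2 groups did not overlap for 3 of the 9, against 54.0% of all genes. Values are CPM of the TMM-scaled library, that is read counts relative to library size after scaling for composition, as plotted for each gene and library.

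**Figure D1:**
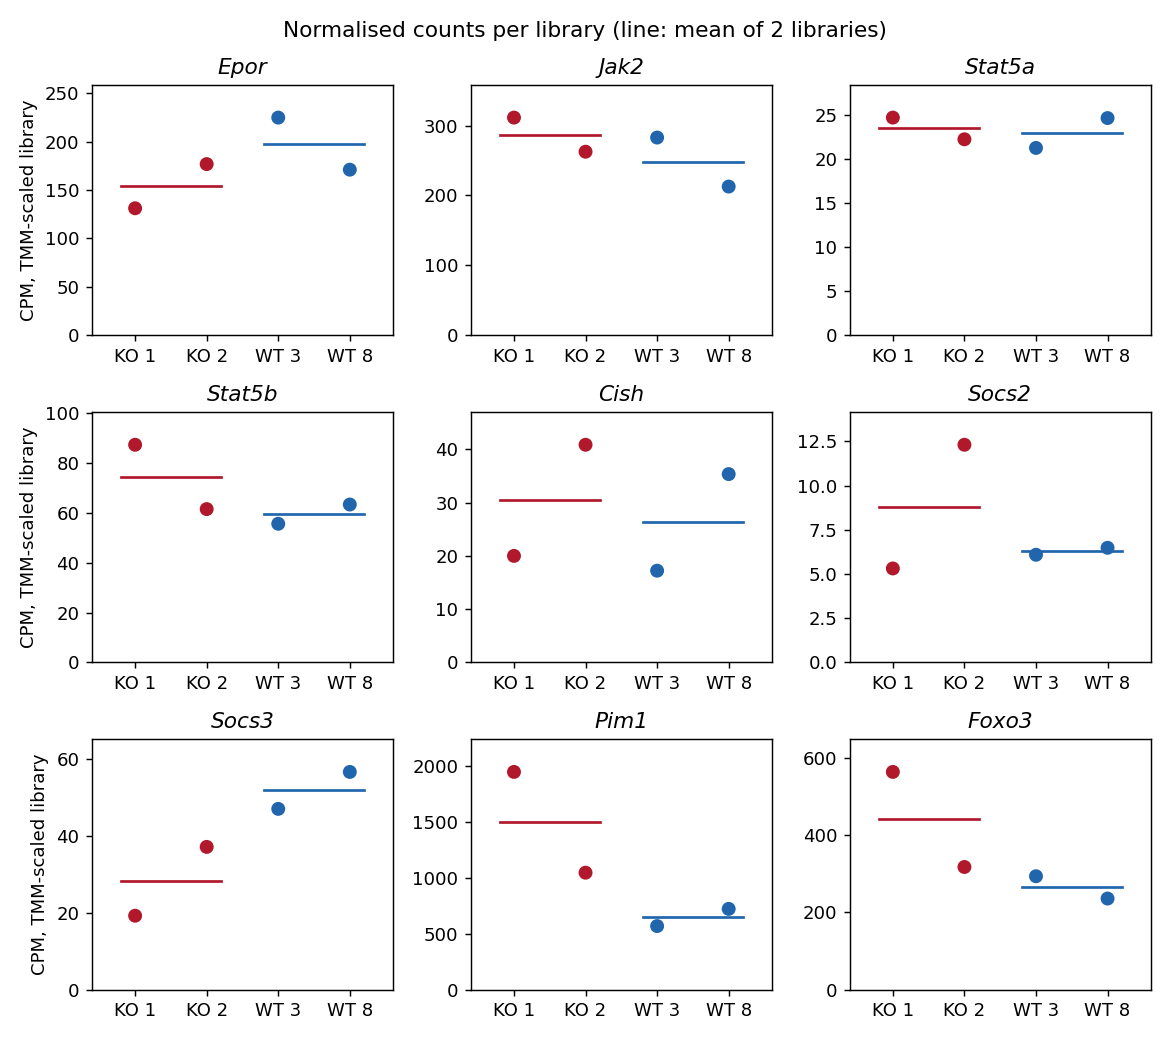
Normalised counts of the 9 genes (vertical axes, CPM of the TMM-scaled library, starting at 0) in the knockout-labelled libraries (KO 1 and KO 2, red) and the controls (WT 3 and WT 8, blue), with a line at the mean of each group. Pim1 and Foxo3 were higher and Socs3 lower in both red libraries than in both blue ones, and the groups overlapped for the other 6 genes.

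Adar, target of the Cre and source of the adenosine deaminase ADAR1, had 67.1 and 102 CPM in knockout-labelled replicates 1 and 2, against 50.9 and 46.9 CPM in control replicates 3 and 8. A gene-level count includes exons that a conditional allele can retain, so it does not test the deletion. Total counts were 32452155 and 38124687 in the knockout-labelled pair, against 28356401 and 44016809 in the control pair. In 3 of the 4 libraries, counts of the Y-linked gene Ddx3y did not match the labelled sex. Knockout-labelled replicate 1 stood apart from the other 3 in the neutrophil and granulocyte markers, of which 9 of 11 were in the table: their summed level was 346 CPM there, against 40.9 CPM in knockout-labelled replicate 2 and 45.3 and 49.4 CPM in the controls. Erythroid markers (15 of 16 in the table) summed to 87807 and 88575 CPM in the knockout-labelled pair, against 128680 and 83548 CPM in the controls, so the sorted cells carried the transcripts their label names. No gene of the lymphoid list of 10 was in the table, which holds only genes above 1 CPM in at least 2 libraries.

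Epor (ENSMUSG00000006235; NCBIM37 chromosome 9, 21763343 to 21768020, minus strand), the receptor gene and also the driver of the Cre, had 131 and 177 CPM in knockout-labelled replicates 1 and 2. In the controls it had 225 and 171 CPM. Knockout-labelled replicate 1 was the lowest and control replicate 3 the highest, and the other 2 were close to each other, so the groups overlapped. The means were 154 ± 32.3 CPM in the knockout-labelled pair and 198 ± 38 CPM in the controls (SD, n = 2 each). The log2 fold change was -0.36 (SE 0.25, 95% interval -0.96 to 0.24, edgeR adjusted p = 0.491), which includes a knockout-labelled level of 0.512 times the control level at its lower bound. A part of the Cre allele in the Epor count cannot be told apart from that of Adar. In bulk RNA of this kind, fewer cells that make a transcript and less of it per cell also cannot be told apart.

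The genes whose pattern over the 4 libraries was most like that of Epor were Cenpt, Mbnl3, Urod, Ppp2r5b and Rad21. Likeness was the root mean square difference of log2 CPM after each gene was centred on its own mean, and it ran from 0.0059 (Cenpt) to 0.020 (Rad21) over these 5. Urod, which encodes an enzyme of haem synthesis, had 843 and 1134 CPM in the knockout-labelled pair, against 1417 and 1066 CPM in the controls. The order of the libraries was the same as for Epor, with control replicate 3 highest and knockout-labelled replicate 1 lowest. Urod was picked for this likeness, so the shared order is not a separate result.

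Jak2 (ENSMUSG00000024789; chromosome 19, 29326318 to 29387570, plus strand), the kinase gene, had 311 and 263 CPM in the knockout-labelled pair. The controls had 283 and 213 CPM, so the groups overlapped. Its log2 fold change was 0.21 (SE 0.23, 95% interval -0.36 to 0.78, edgeR adjusted p = 0.644). The count of Epor reads per Jak2 read, which does not depend on library scaling, was 0.421 and 0.673 in knockout-labelled replicates 1 and 2, against 0.795 and 0.804 in control replicates 3 and 8. The receptor-to-kinase ratio was therefore below both controls in both knockout-labelled libraries, although neither gene separated alone. This ratio was chosen after the values were seen and carries no test.

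Stat5a and Stat5b encode near-identical transcription factors and lie head to head on chromosome 11, with Stat5b (ENSMUSG00000020919, 100642045 to 100712038) on the minus strand and Stat5a (ENSMUSG00000004043, 100720665 to 100746483) on the plus strand, 8.6 kilobases apart. How reads shared between such paralogs were counted is not given in the sources used here, so the split between them is uncertain. Stat5a was the steadiest of the 9 genes, with 24.7 and 22.3 CPM in the knockout-labelled pair and 21.3 and 24.7 CPM in the controls. Its log2 fold change was 0.03 (SE 0.21, 95% interval -0.49 to 0.56, edgeR adjusted p = 0.946), and its sign turned with the choice of scaling and library. Stat5b had 87.3 and 61.5 CPM in the knockout-labelled pair and 55.6 and 63.3 CPM in the controls. Only knockout-labelled replicate 1 stood above the others, for a log2 fold change of 0.32 (SE 0.23, edgeR adjusted p = 0.51).

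Stat5a made up 22.1% of the reads of the pair in knockout-labelled replicate 1 (exact binomial 95% interval 20.7 to 23.5) and 26.6% in knockout-labelled replicate 2 (25.1 to 28.1). In the controls the share was 27.7% (25.8 to 29.6) in replicate 3 and 28.0% (26.7 to 29.4) in replicate 8. Stat5b was thus the larger part of the pair in all 4 libraries. The interval of knockout-labelled replicate 1 lay below the other 3, which overlapped each other, and these intervals cover counting error only.

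The feedback inhibitors had fitted differences of both signs. Cish (ENSMUSG00000032578; chromosome 9, 107198357 to 107205115, plus strand) encodes an SH2 protein that is induced by STAT5 and acts on the activated receptor complex, and its promoter is the one with 2 STAT motif matches above. Its level was 20.0 and 40.8 CPM in knockout-labelled replicates 1 and 2, against 17.2 and 35.3 CPM in control replicates 3 and 8. Within each group 1 library was about at the level of a library of the other group, so the groups overlapped fully. The gap between the 2 libraries of a group was 1.03 on the log2 scale in the knockout-labelled group and also 1.03 in the controls. A gap at least as wide was found in 11.1% of all genes between the knockout-labelled libraries and in 2.68% between the controls. The fitted log2 fold change of Cish was 0.21 (SE 0.46, 95% interval -0.93 to 1.35, edgeR adjusted p = 0.822). The 2 libraries with the lower Cish level were also the 2 with the lower total counts, and the part of depth or of any shared handling in this pattern was not tested.

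The genes most like Cish over the 4 libraries were 1700048O20Rik, Ppard, Pla2g15, Gm8203 and Gm6682, at root mean square differences of 0.11 to 0.17 on the log2 scale. Ppard, a nuclear receptor gene, had 27.8 and 54.2 CPM in the knockout-labelled pair, against 28.2 and 52.4 CPM in the controls. The likeness to Cish was looser than that of the genes closest to Epor.

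Socs2 (ENSMUSG00000020027; chromosome 10, 94847996 to 94879814, minus strand), a STAT5-induced inhibitor known best as a brake on growth hormone signalling, had the lowest level per length of the 9 genes. It had 5.32 and 12.3 CPM in the knockout-labelled pair (163 and 475 counts), against 6.09 and 6.49 CPM in the controls (168 and 307 counts). Knockout-labelled replicate 2 alone stood high, and replicate 1 was below both controls. Its log2 fold change of 0.49 (SE 0.43, edgeR adjusted p = 0.573) became -0.25 without knockout-labelled replicate 2.

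Socs3 (ENSMUSG00000053113; chromosome 11, 117827393 to 117831361, minus strand), an inhibitor that binds both JAK2 and phosphorylated receptors and is also induced through STAT3, was the one inhibitor with separate groups. It had 19.2 and 37.2 CPM in knockout-labelled replicates 1 and 2, against 47.1 and 56.7 CPM in control replicates 3 and 8. Both knockout-labelled values lay below both controls, as for 26.7% of all genes. The means were 28.2 ± 12.7 and 51.9 ± 6.8 CPM (knockout-labelled and control, SD, n = 2 each), which fits a log2 fold change of -0.88 (SE 0.34, 95% interval -1.71 to -0.04, unadjusted p = 0.0423 and adjusted p = 0.419 in edgeR). Leaving out knockout-labelled replicate 1 gave -0.48 (adjusted p = 0.527), and leaving out replicate 2 gave -1.44 (adjusted p = 0.00143), where 32.6% of all genes were called. Macrophages also express Socs3, and their markers (11 of 15 in the table) summed to 51.8 and 29.1 CPM in knockout-labelled replicates 1 and 2, against 75.7 and 41.7 CPM in control replicates 3 and 8. Lyz2, which neutrophils also express, made up 43.1 CPM of the sum in knockout-labelled replicate 1. The other 10 markers, a split made after the values were seen, summed to 8.78 and 20.8 CPM against 66.0 and 30.8 CPM in the controls. All 10 had negative log2 fold changes (median -1.84), and 7 of them had both knockout-labelled values below both controls. Of those 7, Vcam1, C1qa and Cd5l exceed the table's minimum only in the controls, so their sign was partly set by that filter. The sum of these 10 markers and the level of Socs3 were thus lower in both knockout-labelled libraries, and lowest in replicate 1. With Lyz2 in the sum, knockout-labelled replicate 1 was above control replicate 8. Between the controls, the sum of the 10 was higher in replicate 3 and Socs3 was higher in replicate 8. The part of macrophages in the Socs3 difference was not tested. Cish, whose promoter also held the STAT motif, had a fitted difference of the other sign.

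Pim1 (ENSMUSG00000024014; chromosome 17, 29627757 to 29632390, plus strand), a constitutively active serine-threonine kinase that promotes survival, had the widest difference of the 9 genes. Its level was 1951 and 1048 CPM in knockout-labelled replicates 1 and 2, against 569.95 and 724 CPM in control replicates 3 and 8. Both knockout-labelled libraries were above both controls, as for 27.4% of all genes. The means were 1500 ± 638 CPM and 647 ± 109 CPM (knockout-labelled and control, SD, n = 2 each). That is a 2.32-fold higher level, with a 95% interval from 1.25 to 4.3, or 1.21 on the log2 scale (SE 0.36, unadjusted p = 0.0158 and adjusted p = 0.356 in edgeR). DESeq2 called Pim1 (adjusted p = 0.0211), with 3.49% of all genes called, and so did edgeR's likelihood ratio test (adjusted p = 0.04, 3.26% of all genes called), while limma-voom did not (adjusted p = 0.411). The authors' deposited table, with its sign turned to knockout minus wild type, gave 1.18 with an adjusted p of 0.411.

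The 2 genes with opposite differences were also compared as a ratio within each library. The number of Pim1 reads per Socs3 read was 101 and 28.2 in knockout-labelled replicates 1 and 2, against 12.1 and 12.8 in control replicates 3 and 8. The controls were close to each other, while the knockout-labelled libraries differed from each other more than replicate 2 did from the controls. This ratio, like that of Epor to Jak2, was picked after the values were seen and carries no test.

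Foxo3 (ENSMUSG00000048756; chromosome 10, 41901647 to 41996561, minus strand), the forkhead factor that the AKT branch restrains, had 564 and 318 CPM in the knockout-labelled pair. The controls had 294 and 236 CPM. Its groups did not overlap, but knockout-labelled replicate 2 exceeded control replicate 3 by little. The means were 441 ± 174 CPM and 265 ± 40.8 CPM (knockout-labelled and control, SD, n = 2 each), which fits a log2 fold change of 0.73 (SE 0.32, 95% interval -0.06 to 1.53, edgeR adjusted p = 0.433). Leaving out knockout-labelled replicate 1 gave 0.26 (adjusted p = 0.896), and leaving out replicate 2 gave 1.08 (adjusted p = 0.0122). Transcript level does not report the phosphorylation that controls where FOXO3 protein resides.

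Pim1, Foxo3 and Socs3 shared one feature, that knockout-labelled replicate 1 was the library farthest from the controls. On the log2 scale, replicate 1 differed from the control mean by 1.60 for Pim1, 1.10 for Foxo3 and -1.42 for Socs3. The same differences for replicate 2 were 0.71, 0.27 and -0.47. Replicate 1 was also the library with the high sum of neutrophil and granulocyte markers given above, whose part in these 3 values was not tested. In replicate 2 the 3 differences had the same signs and were smaller, and Foxo3 exceeded control replicate 3 by little. With replicate 2 left out, 1 knockout-labelled library is compared with 2 controls and is assumed to vary as they do, and 4 of the 9 genes passed (Pim1, Foxo3 and Stat5b higher, beside 17.3% of all genes, and Socs3 lower, beside 15.3%). With replicate 1 left out 0 passed, where 1.33% of all genes were called. Also 0 of the 9 passed without control replicate 3 (0.383% of all genes called), without control replicate 8 (0.252%), without library scaling (0.812%), with a stricter filter (0.142%), with limma-voom (0.0747%) and with legacy=FALSE (0.14%).

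**Figure D2:**
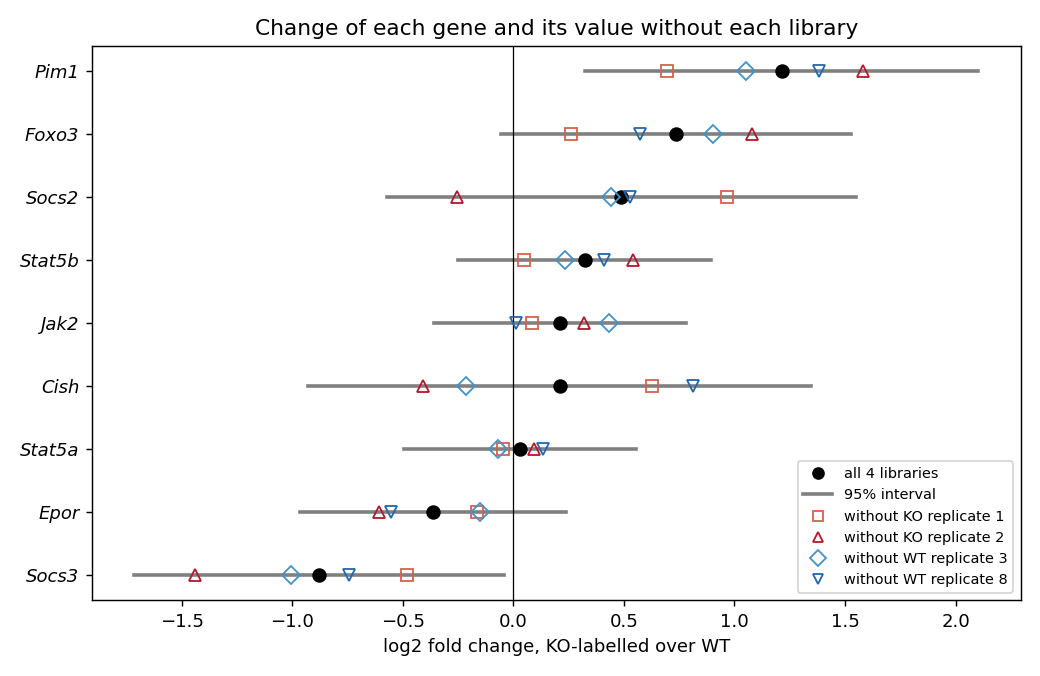
Log2 fold change of each gene, knockout-labelled over control (horizontal axis), with all 4 libraries (black, with the 95% interval in grey) and without each library in turn (open symbols). Pim1, Foxo3, Stat5b and Jak2 stayed above 0 and Epor and Socs3 below 0 in all 5 fits, and Cish, Socs2 and Stat5a changed sign.

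Levels of different genes were compared only per length, as CPM per kilobase of exon in the NCBIM37 annotation. Pim1 was highest at 544 ± 314 (SD over 4 libraries), a level above that of 99.1% of the 9537 annotated genes. Epor followed at 96.2 ± 21, Jak2 at 53.2 ± 8.26 and Foxo3 at 49.0 ± 20.1. Socs3 at 13.8 ± 5.53 and Stat5b at 12.1 ± 2.52 came next, then Cish at 4.42 ± 1.8, Stat5a at 3.26 ± 0.244 and Socs2 at 0.792 ± 0.337. Neighbours in this order whose ranges over the libraries overlapped were Jak2 and Foxo3, Socs3 and Stat5b, and Cish and Stat5a. With the longest coding transcript in place of all exons the order was the same, and Cish (6.04 to 14.3) then also overlapped Stat5b (10.7 to 16.7). Transcripts of the receptor and its kinase were thus several times those of the STAT5 genes per length in every library. In knockout-labelled replicate 1 Foxo3, at 78.2 CPM per kilobase, was above both Epor (71.7) and Jak2 (61.9), an order that the other 3 libraries did not have.

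**Figure D3:**
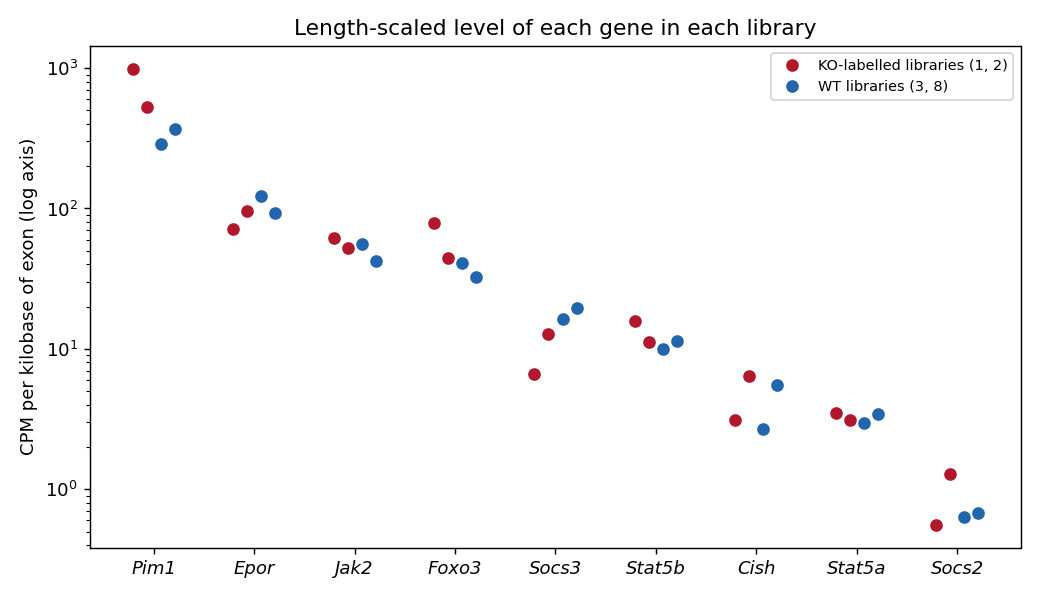
Level of each gene in CPM per kilobase of exon (vertical log axis) in each library, knockout-labelled in red and control in blue, with genes ordered by their mean. Pim1 was highest in every library (289 to 989), and Epor (71.7 to 123) lay above Jak2 (42.3 to 61.9) and both STAT5 genes.

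The wider pathway was read from 9 lists of genes. In the list of cytokine receptors 13 of 20 genes were in the table, and 0 passed the quasi-likelihood test. Their median log2 fold change was 0.89, against -0.001 over all genes, and it was 0.50 without knockout-labelled replicate 1. Il4ra, a receptor subunit for interleukin 4 and 13, had 23.6 and 13.1 CPM in the knockout-labelled pair, against 2.32 and 5.79 CPM in the controls (log2 fold change 2.16, SE 0.52, adjusted p = 0.295). Ifnar2, a chain of the type I interferon receptor, had 169 and 120 CPM against 78.6 and 70.8 CPM in the controls, and Il6st, the shared gp130 chain, had 8.02 and 3.11 CPM against 1.67 and 1.92 CPM in the controls. The groups did not overlap for 9 genes that were higher and 1 that was lower, beside 27.4% and 26.7% of all genes. DESeq2 and the likelihood ratio test each called 2 of the 13, beside 3.49% and 3.26% of all genes.

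Among the JAK and STAT families 10 of 11 genes were in the table, and 0 passed. All 10 had positive log2 fold changes (8 of 10 without library scaling, without knockout-labelled replicate 1 or without control replicate 3, and 9 without knockout-labelled replicate 2). Their median was 0.28, or 0.15 without knockout-labelled replicate 1, and Tyk2 (0.04) and Stat5a (0.03) were at the low end. Stat2, a factor of type I interferon signalling, had 57.8 and 29.0 CPM in the knockout-labelled pair, against 17.0 and 16.6 CPM in the controls. Jak1, the kinase shared by interferon and many cytokine receptors, had 265 and 209 CPM against 165 and 152 CPM in the controls, so its groups did not overlap while those of Jak2 did. Stat3, which with STAT5 can be activated by JAK2, had 62.5 and 45.7 CPM against 45.8 and 45.3 CPM in the controls. Both DESeq2 and the likelihood ratio test called 2 of the 10, beside the same shares of all genes.

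Of the SOCS family 7 of 8 genes were in the table, and 0 passed. Besides Cish, Socs2 and Socs3 these were Socs4, Socs5, Socs6 and Socs7, with log2 fold changes from -0.19 (Socs5) to 0.21 (Socs4). Socs4 had 49.6 and 29.3 CPM in the knockout-labelled pair, against 35.0 and 33.2 CPM in the controls. Socs3 was the family member with separate groups.

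The other negative regulators of the receptor and JAK2 had 20 of 20 genes in the table and 0 that passed, with a median log2 fold change of 0.18. That median was 0.0001 without knockout-labelled replicate 1, with 10 positive and 10 negative values, and 0.11 without control replicate 3. Cblb, a ubiquitin ligase, had 20.9 and 13.0 CPM in the knockout-labelled pair, against 8.27 and 8.01 CPM in the controls (log2 fold change 1.06, SE 0.30, adjusted p = 0.353). Inpp5d, the inositol phosphatase SHIP1, had 61.7 and 43.3 CPM against 30.2 and 36.7 CPM in the controls. Ptprc, the leukocyte phosphatase CD45, had 9.56 and 1.94 CPM against 2.03 and 1.54 CPM in the controls, so its high value was that of knockout-labelled replicate 1 alone, the library with the high neutrophil markers. The adaptor gene Sh2b3 (0.28) and the phosphatase gene Ptpn6 (0.15), 2 well-known brakes on EPOR signalling, had overlapping groups, and these examples were chosen for their role after the values were seen.

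Genes of receptor maturation and trafficking (15 of 16 in the table) had 0 that passed and a median log2 fold change of 0.11. Leaving out knockout-labelled replicate 1 gave a median of 0.0039, and leaving out control replicate 3 or 8 gave 0.052 or 0.023. Hspa5, a chaperone of the endoplasmic reticulum, had 1843 and 541 CPM in the knockout-labelled pair, against 485 and 422 CPM in the controls. Scrib, a scaffold protein reported to take part in recycling of the receptor, had 35.8 and 60.3 CPM against 79.6 and 75.0 CPM in the controls (log2 fold change -0.68, SE 0.28, adjusted p = 0.423). The clathrin light chain gene Cltb had 43.9 and 70.4 CPM against 93.9 and 84.3 CPM in the controls. Groups did not overlap for 5 genes that were higher and 5 that were lower, shares near those of all genes (27.4% and 26.7%).

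STAT5 targets and genes induced by erythropoietin had 29 of 32 genes in the table. Of these, 1 rose and 0 fell in the quasi-likelihood test, beside 0.103% and 0% of all genes. The median log2 fold change was 0.45. Among these genes Nupr1, Egr1 and Bcl6 exceed the table's minimum only in the knockout-labelled libraries, so their sign was partly set by that filter. The gene that rose was Trib3, a pseudokinase gene also induced by the stress factor ATF4, which had 228 and 153 CPM in the knockout-labelled pair, against 7.87 and 5.05 CPM in the controls (log2 fold change 4.89, SE 0.35, edgeR adjusted p = 0.027). Nupr1, another stress-response gene, had 7.18 and 2.59 CPM against 0.0725 and 0.254 CPM in the controls (2 and 12 counts), and only its knockout-labelled values exceed the table's minimum. Dapp1, an adaptor protein gene, had 102 and 73.7 CPM against 30.2 and 39.9 CPM in the controls (log2 fold change 1.32, SE 0.25, adjusted p = 0.198). The count of 1 was 6 under both DESeq2 (3.49% of all genes called) and the likelihood ratio test (3.26%), and 2 without control replicate 3 (0.383%) or without library scaling (0.812%). It was 4 without knockout-labelled replicate 1 (1.33%) and 12 without replicate 2 (32.6%).

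Other targets were picked for their role in erythroid cells after the values were seen, and none passed. Bcl2l1, which encodes the survival protein BCL-XL, had 689 and 618 CPM in the knockout-labelled pair, against 729 and 471 CPM in the controls (log2 fold change 0.12, SE 0.28). Tfrc, the transferrin receptor gene, had 5282 and 3479 CPM against 4113 and 2614 CPM in the controls (log2 fold change 0.38, SE 0.37). Fam132b, which encodes erythroferrone, had 37.8 and 43.3 CPM against 22.1 and 37.3 CPM in the controls (log2 fold change 0.45, SE 0.29), with groups that did not overlap. Of the other Pim kinase genes, Pim2 was at 5.38 and 7.44 CPM against 9.25 and 6.25 CPM in the controls, and Pim3 was at 10.7 and 7.21 CPM against 5.55 and 7.56 CPM in the controls. Both Pim2 and Pim3 overlapped between the groups.

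The PI3K and AKT arm (26 of 27 genes in the table) and the RAS and MAPK arm (21 of 26) had 0 that passed each, with medians of -0.02 and -0.05. The medians ran from -0.10 to 0.0024 and from -0.054 to -0.015 when each library was left out in turn. In the first, Sgk1, a kinase related to AKT, had 3.33 and 2.02 CPM in the knockout-labelled pair, against 0.87 and 0.803 CPM in the controls. Only its knockout-labelled values exceed the table's minimum (24 and 38 counts in the controls), so its sign was partly set by that filter. Gab2, an adaptor between receptors and PI3K, had 107 and 34.4 CPM against 15.8 and 24.8 CPM in the controls. In the second, Spry1, a feedback inhibitor of RAS signalling, had 32.7 and 9.12 CPM against 1.96 and 3.27 CPM in the controls (log2 fold change 2.98, SE 0.65, adjusted p = 0.261). Map2k1, the kinase MEK1, had 83.2 and 39.2 CPM against 21.2 and 26.2 CPM in the controls, and Hras1 had 45.8 and 76.0 CPM against 123 and 94.9 CPM in the controls. In the PI3K and AKT arm the groups did not overlap for 8 genes that were higher and 8 that were lower. The RAS and MAPK arm had 6 higher and 8 lower without overlap. Of all genes, 27.4% were higher and 26.7% lower without overlap.

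The FOXO family and targets of FOXO3 had 29 of 32 genes in the table and 0 that passed in the quasi-likelihood test, where 8 had an unadjusted p below 0.05, all higher, beside 9.82% of all genes. Of the 29, 26 had positive log2 fold changes (24 without library scaling), with a median of 0.39, and the median ran from 0.34 to 0.42 when each library was left out in turn. Groups did not overlap for 16 genes that were higher and 2 that were lower, beside 27.4% and 26.7% of all genes. Bnip3, a mitochondrial protein gene of mitophagy, had 415 and 104 CPM in the knockout-labelled pair, against 14.6 and 33.5 CPM in the controls (log2 fold change 3.43, SE 0.75, adjusted p = 0.26). Ypel3 had 394 and 249 CPM against 151 and 127 CPM in the controls, and Ccng2, an unconventional cyclin gene that slows the cell cycle, had 132 and 81.4 CPM against 55.3 and 38.6 CPM in the controls. Foxo4 (-0.47), Sod2 (-0.39) and Prdx2 (-0.25) were the 3 with negative values, and Bcl2l11, the death activator gene BIM, was at 0.02. Both DESeq2 and the likelihood ratio test called 4 of the 29, all higher, beside 3.49% and 3.26% of all genes. Several of these genes also answer to p53 or hypoxia factors, and the list was compiled with earlier results of these data known.

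**Figure D4:**
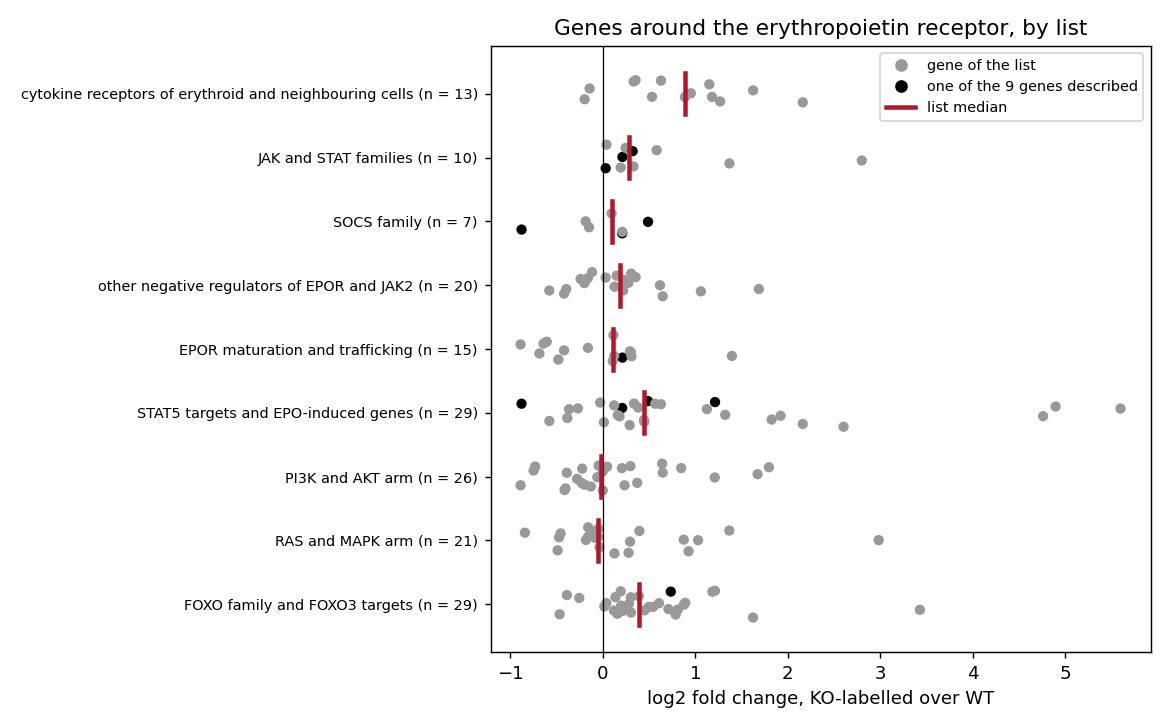
Log2 fold change, knockout-labelled over control (horizontal axis), of the measured genes of 9 lists (rows, grey points), with the 9 genes described in black and each list's median in red. The medians ran from -0.05 (RAS and MAPK arm) to 0.89 (cytokine receptors), and points of each list lay on both sides of 0 except for the JAK and STAT families, where all 10 were positive (8 without library scaling, and 8 to 10 when each library was left out in turn).

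Markers of other cells were uneven between libraries. Megakaryocyte markers (8 of 10 in the table) summed to 186 and 115 CPM in the knockout-labelled pair, against 66.0 and 95.9 CPM in the controls, and endothelial markers (6 of 8) to 31.2 and 40.4 CPM against 17.1 and 16.2 CPM in the controls. Hepatoblast markers (9 of 11) summed to 61.7 and 71.9 CPM against 129 and 52.9 CPM in the controls, and stem and progenitor markers (4 of 10) to 134 and 79.7 CPM against 77.4 and 83.5 CPM in the controls. None of the marker genes passed the quasi-likelihood test. The part of these cells in the 9 genes was not tested.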

How the data were processed

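RNA sequencing libraries of YFP-positive fetal liver cells were compared, 2 knockout-labelled against 2 controls. The authors deposited raw counts per gene for 10716 genes, each at 1 CPM or more in at least 2 libraries. The authors' deposited CPM of the TMM-scaled library equalled those computed here within 0.049% for genes at 100 CPM or more. The authors' deposited comparison table holds a log2 fold change, coded wild type minus knockout, a p-value with its adjusted p-value, and a score, per the file headers. The submitters' processing notes list, with no roles, limma, edgeR, HTSeq, GATK, Cufflinks, BWA 0.6.2, TopHat2 2.0.8, Trimmomatic 0.30, SAMtools 0.1.19 and Bowtie2 2.1.0.0, on mm9 and NCBIM37. Strand and the counting of shared reads are not given in the sources used here.

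Counts were fitted in edgeR 4.0.16 (R 4.3.3) with filterByExpr, TMM, estimateDisp, glmQLFit (robust, legacy default) and its two-sided quasi-likelihood test. P-values were Benjamini-Hochberg adjusted over all genes, called below 0.05. Filtering removed 0 genes. The common biological coefficient of variation was 25.6% on 2 residual degrees of freedom. The standard error was the absolute log2 fold change divided by the square root of F, and 95% intervals used the fit's total degrees of freedom. Log2 CPM used a prior count of 2. The code of the fits was checked on simulated counts, for the sign and size of large planted changes. The simulated spread was the same for all genes and below the common value above. The check therefore does not measure error rates at the spread of these data. Alternatives were RLE scaling, no scaling, no filter, a stricter filter (1 CPM in every library of a group), DESeq2 1.42.0, limma-voom (3.58.1), the likelihood ratio test, legacy=FALSE and leaving out each library.

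The members and lists were chosen with earlier results of these data known. Named were the 9 genes, Adar, each list's called genes and its 3 with the smallest p, and the 5 genes most like Epor and Cish among genes whose log2 CPM averaged 1 or more. In 2 lists 1 gene that this rule takes is not reported here. Gene positions and exon lengths came from the NCBIM37 annotation (9537 genes found), and promoter sequences from RefSeq. Total counts were 28356401 to 44016809 per library.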

Additional observations from a re-analysis of the deposited data

How the results depend on the processing

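No paired analysis was possible because the libraries share no replicate numbers between the groups. Of the 9 genes' log2 fold changes, 96 of 108 alternative values kept their sign and their side of the threshold. Values with no filter could not change, because filtering removed 0 genes, and most changes came from leaving out 1 library. Stat5a was -0.042 with no library scaling. DESeq2 and the likelihood ratio test put Pim1 past the threshold (1.21 with each), so the count of the 9 was 1 with each. Over the fits that left out 1 library, the log2 fold change ran from -0.60 to -0.15 for Epor, 0.011 to 0.43 for Jak2, -0.071 to 0.13 for Stat5a, -0.41 to 0.81 for Cish, -0.25 to 0.97 for Socs2, 0.048 to 0.54 for Stat5b, -1.44 to -0.48 for Socs3, 0.70 to 1.58 for Pim1 and 0.26 to 1.08 for Foxo3. In those fits 0 to 4 of the 9 passed, and 27 to 3492 of all genes, against 11 with all libraries. All genes called numbered 374 under DESeq2, 349 by the likelihood ratio test and 87 if libraries were not scaled.

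DESeq2 and the likelihood ratio test called 3.49% and 3.26% of all genes. Each called 2 of 13 cytokine receptors, 2 of 10 JAK and STAT genes and 6 of 29 STAT5 targets and erythropoietin-induced genes. The last count was 2 without library scaling, beside 0.812% of all genes. Each also called 2 of 26 genes in the PI3K and AKT arm, 2 of 21 in the RAS and MAPK arm and 4 of 29 FOXO genes. Leaving out 1 library gave 0 to 6 cytokine receptors, 0 to 4 in the JAK and STAT families, 0 to 2 in the SOCS family, 0 to 4 other negative regulators and 0 to 4 trafficking genes. It gave 1 to 12 STAT5 targets, 0 to 8 in the PI3K and AKT arm, 0 to 7 in the RAS and MAPK arm and 0 to 11 FOXO genes, the highest in each case without knockout-labelled replicate 2. That fit compares 1 knockout-labelled library with 2 controls and called 32.6% of all genes. The fits without each of the other libraries called 0.252% to 1.33% of all genes. The highest counts are to be read beside the share of 32.6%, and no list was tested against it. The cause of the high counts in that fit was not tested. With 2 libraries per group, a gene that did not pass can still differ by any value within its stated interval. The intervals of Pim1 and Socs3 excluded 0, and neither gene passed the quasi-likelihood test over all genes.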
